A study of Mus musculus with 2 samples.

Results

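The genes described here are 35 enzymes of central carbon metabolism, taken as a fixed list of symbols: 17 of glycolysis and its regulation, 4 of the pentose phosphate pathway and 14 of the tricarboxylic acid (TCA) cycle with pyruvate entry. They were read from 55536 annotated genes, of which 22028 are protein-coding, and all 35 symbols were found. Total RNA, depleted of ribosomal RNA, came from the nuclei of bone marrow-derived macrophages, primary phagocytes grown from C57BL/6J mouse marrow. All cells had received 100 ng/ml Lipid A, the part of lipopolysaccharide that the receptor TLR4 binds, for 12 hours. A washout of 12 hours and a second exposure to 100 ng/ml for 20 minutes followed. The design held 1 group with 2 libraries, biological replicates 1 and 2. Age and sex were not collected, both libraries carry a single donor label, and the labels do not say if separate animals were used, so the spread between them may be partly technical. Unexposed, once-exposed and cytoplasmic samples were not analysed here, so no response to Lipid A is measured and no test between conditions exists.

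Glycolysis splits glucose into pyruvate in the cytosol and yields ATP without oxygen. The pentose phosphate pathway branches off at glucose 6-phosphate and supplies NADPH and ribose. The TCA cycle, in the mitochondrial matrix, oxidises the acetyl group that pyruvate dehydrogenase makes from pyruvate. Macrophages exposed to bacterial lipid are known to raise glycolysis and lactate output and to remodel the TCA cycle, with build-up of succinate and of itaconate. In nuclear RNA the level of an enzyme's gene reflects transcripts being made, processed or kept in the nucleus, and not the enzyme's amount.

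The libraries held 21954179 and 17739520 expected counts in genes for replicates 1 and 2, so that a count of 0 allows up to 0.137 and 0.169 CPM (counts scaled to a common library total). These limits and the intervals below cover counting error only. The label was checked against cell markers: all 9 macrophage markers reached 1 TPM (a level per transcript length, scaled to a common library total), from 47.7 TPM for Spi1 to 1411 TPM for Lyz2. None of the 6 neutrophil, 5 T and B cell, 4 dendritic cell, 3 erythroid and 4 stromal markers did, and the summed level of each of those lists was at most 1.89 TPM in a library. Among those at 0 were Elane, Ly6g, Cd3e, Cd3g, Hba-a1 and Dcn. In bulk RNA, fewer cells of a type and less RNA per cell cannot be told apart. Replicate 1 was made from 1 µg of RNA and replicate 2 from 500 ng, and mitochondrial mRNAs took 3.45% and 6.32% of counts. Input, mitochondrial share and replicate cannot be told apart in any difference between the libraries.

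The sequences of 2 exons are shown first, because the choice between them sets which form of pyruvate kinase a transcript encodes. Pkm encodes pyruvate kinase of muscle type, the last ATP-producing step of glycolysis, and its transcript carries one of 2 mutually exclusive exons. Both are 167 bases long and wholly coding, on the plus strand of chromosome 9 (mm10, GENCODE M21). The upstream exon, chr9:59675029-59675195, gives the constitutively active M1 form, and the downstream exon, chr9:59675568-59675734, gives the M2 form, which allosteric ligands regulate and which proliferating and activated cells use. Capitals mark the 64 positions at which the exons differ when aligned base by base without gaps, which leaves 61.7% identity.
Pkm M1 exon: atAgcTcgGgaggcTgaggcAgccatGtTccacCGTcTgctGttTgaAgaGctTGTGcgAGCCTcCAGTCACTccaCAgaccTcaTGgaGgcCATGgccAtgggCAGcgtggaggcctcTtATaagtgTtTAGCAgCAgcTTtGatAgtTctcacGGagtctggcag
Pkm M2 exon: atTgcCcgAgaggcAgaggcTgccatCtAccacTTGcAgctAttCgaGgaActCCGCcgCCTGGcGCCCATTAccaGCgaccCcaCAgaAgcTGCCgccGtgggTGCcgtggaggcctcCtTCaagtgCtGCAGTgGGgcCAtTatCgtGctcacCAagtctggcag

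The transcript with the M2 exon, Pkm-201, had 78.6 TPM in the first replicate and 86.9 TPM in the second. The transcript with the M1 exon, Pkm-202, had 11.5 and 3.31 TPM. The M2 form was thus the higher in both libraries, with 87.2% and 96.3% of the TPM of the pair. By expected counts its share was 89.3% of the pair in replicate 1, on 5217 counts (95% Wilson interval 88.4 to 90.0), and reached 97.0% in replicate 2, on 3938 counts (96.4 to 97.4). The share of the M1 form differed between libraries by more than counting error. A second deposited quantification of the same libraries, called the other table below, gave the M2 form 87.5% and 96.1%. Each exon lies in a single coding transcript of the annotation, while the M1 exon is also covered by Pkm-203, a retained-intron transcript with 1.45 and 0.640 TPM.

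All 35 enzyme genes reached a mean of 1 TPM, against 45.6% of all protein-coding genes, and 27 reached 10 TPM, against 21.0%. Their median was 20.8 TPM, from 19.2 and 22.8 TPM in replicates 1 and 2. The median of the 10050 protein-coding genes with a mean of 1 TPM or more, called expressed here, was 8.91 TPM, and 29 of the 35 lay at or above it. By pathway the medians were 26.7 TPM for glycolysis (24.9 in each library), 21.4 TPM for the pentose phosphate pathway (19.9 and 23.0) and 16.4 TPM for the TCA cycle (13.6 and 17.1). The 3 medians kept this order in each library. Summed over genes, glycolysis had 732 and 627 TPM, the pentose phosphate pathway 93.3 and 102 TPM and the TCA cycle 221 and 282 TPM. Hk3 and Pkm together made up much of the first sum, and the 35 genes took 0.274% and 0.219% of all counts.

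**Figure D1:**
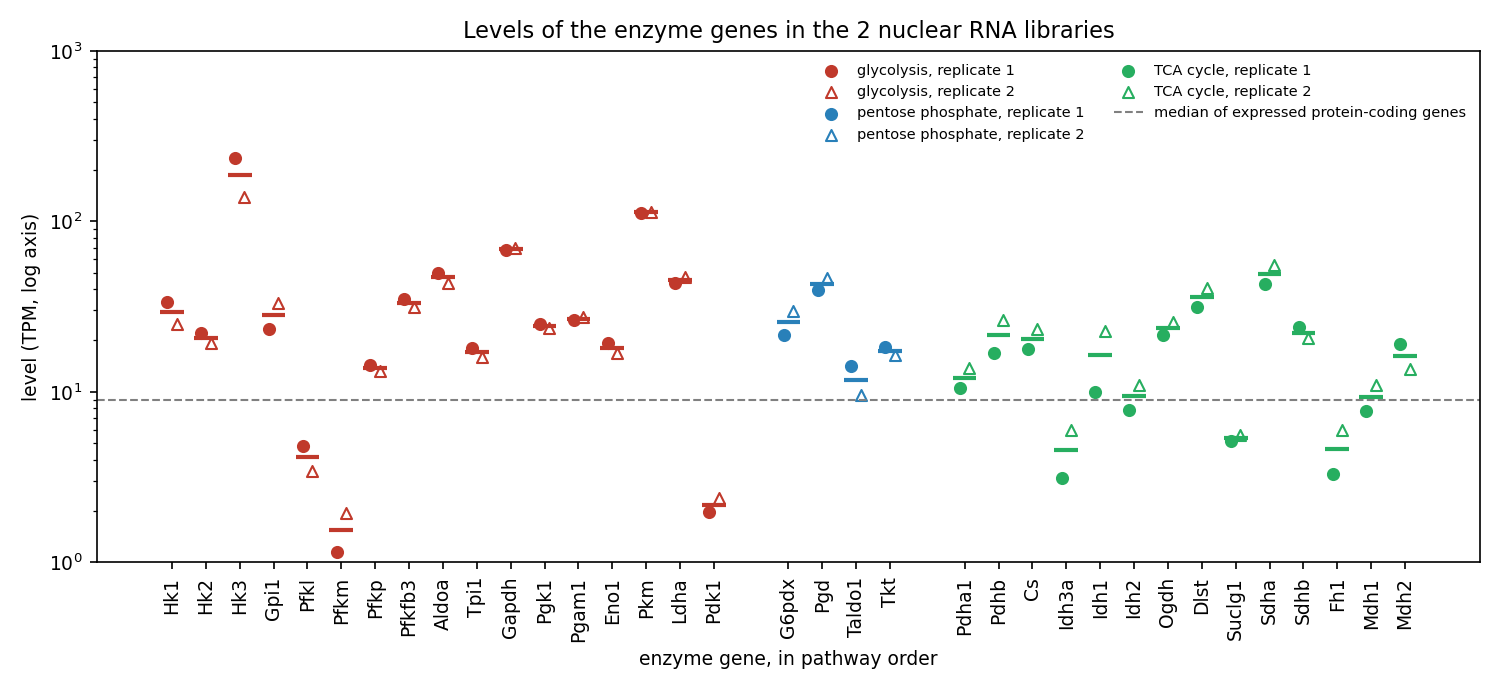
Level of each enzyme gene in TPM on a log axis, in pathway order, with replicate 1 as filled circles, replicate 2 as open triangles and their mean as a bar; the dashed line is the median of expressed protein-coding genes, 8.91 TPM. Hk3 and Pkm stand above 100 TPM in both libraries, and Pfkl, Pfkm, Pdk1, Idh3a, Suclg1 and Fh1 lie below the dashed line in both.

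Glycolysis begins with hexokinase, which traps glucose as glucose 6-phosphate. Hk3, an isozyme of blood cells that lacks the mitochondrial binding segment of its relatives (ENSMUSG00000025877.14, chromosome 13, 55005985 to 55021385, minus strand), had 234 and 139 TPM in replicates 1 and 2, or 187 ± 67.2 TPM (SD, n = 2). It was the highest of the 35 genes in each library and at percentile 99.4 of all protein-coding genes. Hk1, the housekeeping isozyme, had 33.6 and 24.9 TPM, and Hk2, the isozyme that insulin and hypoxia induce in other tissues, had 22.2 and 19.4 TPM. Both libraries thus gave one order, Hk3 over Hk1 over Hk2, with Hk3 6.97 and 5.59 times Hk1. The ratio of Hk1 to Hk2, 1.51 and 1.29, was small beside that, and the values of Hk1 in replicate 2 and Hk2 in replicate 1 lay close together.

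Hk3 held 80.8% and 75.9% of the summed TPM of the 3 hexokinases, Hk1 11.6% and 13.6%, and Hk2 7.66% and 10.6%. Without division by length, Hk3 held 74.7% (95% Wilson interval 74.1 to 75.3) and 68.2% (67.2 to 69.2) of their counts. The other table gave 85.5% and 81.2%. Hk3 therefore led the family by each measure, also when only protein-coding transcripts were summed, an alternative chosen after the data were seen, which gave 72.6% and 61.2%.

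The next control point is phosphofructokinase, a tetramer of liver (Pfkl), muscle (Pfkm) and platelet (Pfkp) subunits that makes fructose 1,6-bisphosphate. Pfkp had 14.3 and 13.2 TPM (13.8 ± 0.771, SD, n = 2), Pfkl 4.79 and 3.45 TPM and Pfkm 1.15 and 1.94 TPM. The groups of values did not overlap: Pfkp was highest and Pfkm lowest in both libraries. In the other table this order held within each library. Every enzyme gene of the list had a higher TPM in replicate 2 there. Across libraries, and so across that shift, Pfkl, with 1.69 and 3.19 TPM, overlapped with Pfkm, with 0.434 and 2.65 TPM. Pfkp held 70.7% and 71.0% of the family's TPM, 75.8% (73.6 to 77.8) and 77.1% (74.7 to 79.4) of its counts, and 70.9% and 72.9% in the other table. The order of the lower pair was less clear in size, with Pfkl 4.17 times Pfkm in replicate 1 and 1.78 times in replicate 2. Summed, the phosphofructokinases had 20.2 and 18.6 TPM, far below the hexokinases at 290.1 and 184 TPM.

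**Figure D2:**
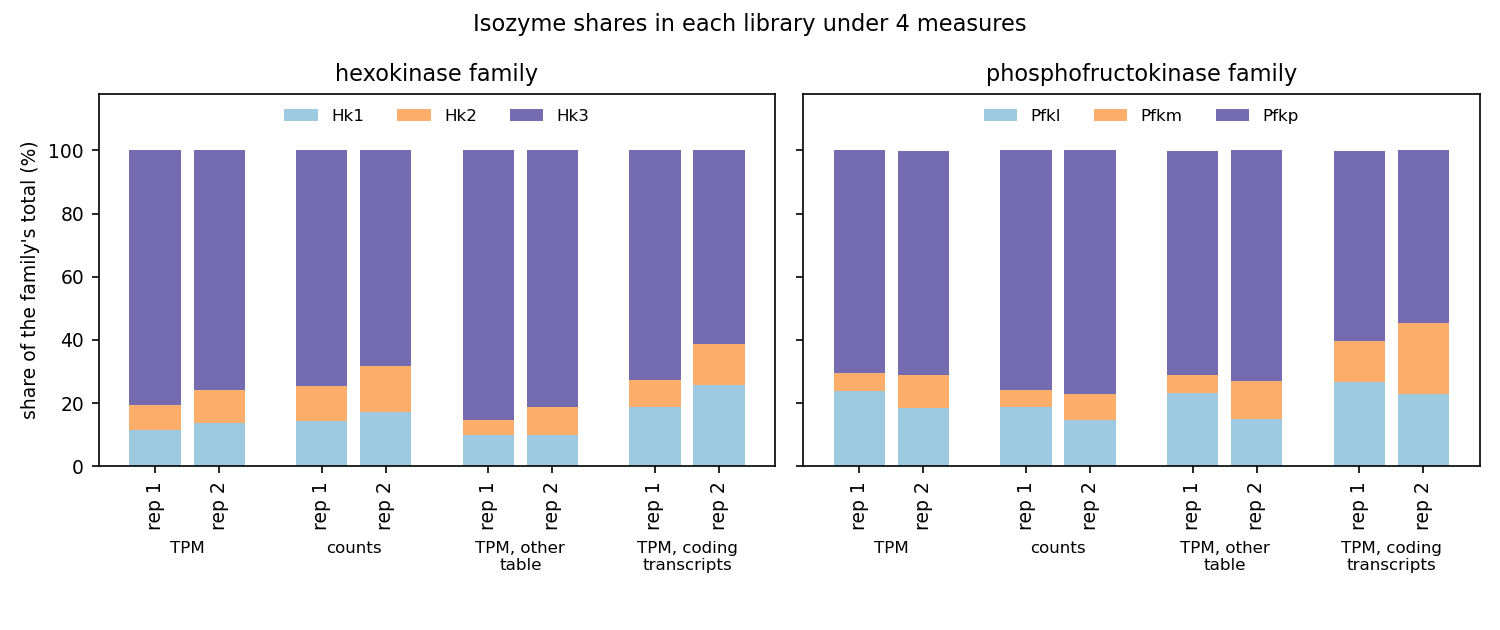
Share of each isozyme in its family's total, in percent, for the hexokinases (left) and phosphofructokinases (right), as stacked bars for replicates 1 and 2 under 4 measures: TPM, counts, TPM of the other table, and TPM of protein-coding transcripts alone. Hk3 and Pfkp hold over 50% of their families in every bar, and both are lowest in replicate 2 of the protein-coding transcripts, at 61.2% and 54.6%.

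Pfkfb3, which makes the phosphofructokinase activator fructose 2,6-bisphosphate and favours its synthesis over its breakdown, had 34.9 and 31.4 TPM. That was above each phosphofructokinase subunit in both libraries. It held 64.5% and 56.2% of the TPM of the 4 Pfkfb genes, before Pfkfb4 with 19.5% and 19.6%. Gpi1, the isomerase between hexokinase and phosphofructokinase, had 23.3 and 33.3 TPM.

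The shared lower steps of glycolysis, from Aldoa to Pkm, ranged from a mean of 17.0 TPM for Tpi1 to 113 TPM for Pkm. Aldoa, which cleaves fructose 1,6-bisphosphate, had 50.05 and 43.52 TPM and 99.5% and 99.1% of the TPM of the 3 aldolases. Tpi1, which interconverts the resulting triose phosphates, had 18.0 and 15.9 TPM. Gapdh, the NAD-dependent dehydrogenase often used as a reference gene, had 67.6 and 69.4 TPM (68.5 ± 1.26, SD, n = 2). Its kinase successor Pgk1 had 24.9 and 23.7 TPM, the mutase Pgam1 26.2 and 27.3 TPM and the enolase Eno1 19.2 and 16.8 TPM. Pkm as a gene had 112 and 114 TPM (113 ± 1.12, SD, n = 2), the second level of the list, with no overlap with Hk3 above it or Gapdh below it. In the other table, where all these genes were higher in replicate 2, Pkm had 32.9 and 83.7 TPM. It overlapped with both across libraries there, though the order of these genes was the same within each library. Among these steps Gapdh and Pkm differed least between libraries in TPM, by 1.03 and 1.01 times. This did not hold with the shift of all genes between libraries removed, as described below. Their log2 differences were then -0.25 and -0.27, while Pgam1 had -0.23. In the other table Gapdh had 15.8 and 37.4 TPM, but every enzyme gene of the list was higher in replicate 2 there. Those values include that shift and do not show how stable Gapdh or Pkm was.

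At the end of glycolysis, Ldha, which reduces pyruvate to lactate, had 43.4 and 46.8 TPM. It took 98.9% and 99.2% of the TPM of the lactate dehydrogenases Ldha, Ldhb and Ldhc. Pdk1, the kinase that switches off pyruvate dehydrogenase, had 1.98 and 2.37 TPM on 197 and 185 counts. Pdk1 was thus near the bottom of the list, with only Pfkm lower by mean, while Ldha ranked sixth. Within the 4 pyruvate dehydrogenase kinases Pdk1 held 51.3% and 48.5% of the TPM.

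Some of these levels carry a limit of sequence. Of the 50-base words in the leading transcript of Gapdh, 94.6% also occur in 205 other genes. The other shares over 10% were 72.2% for Eno1, 68.0% for Pgk1, 41.5% for Pgam1, 34.4% for Pkm, 30.3% for Pdhb, 19.3% for Gpi1, 19.1% for Ldha, 13.9% for Aldoa and 12.4% for Taldo1. How reads of such words were divided depends on the authors' quantification, so the values of these 10 genes are less certain than those of the hexokinases, which share no such word. The genes that share these words ranged widely in counts. The 205 that share words with Gapdh had 959 and 943 counts together, against 1971 and 1383 for Gapdh itself, and the 8 of Pkm had 1678 and 1450, against 6919 and 4761. The 51 that share words with Gpi1 had 40600 and 31922 counts, far above the 1228 and 1041 of Gpi1, while the 5 of Pgk1 had 84.0 and 43.2. The 11 annotated pseudogenes named after a member had between 0 and 6.62 counts each in a library. Since strand is not stated, reads of Pdha1 and of Map3k15, which share 16.5% of words on opposite strands, cannot be separated with certainty, nor those of G6pdx and Ikbkg, at 3.19%. On the opposite strand Gpi1 also shares 8.43% of its words, with 71 genes of 51102 and 43114 counts together, and Gapdh 39.0%, with 4 genes at 0 counts.

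Among the 4 pentose phosphate enzymes, the NADPH-producing dehydrogenases of the oxidative branch were above the 2 enzymes of the non-oxidative branch in both libraries. G6pdx, glucose 6-phosphate dehydrogenase and the entry step, had 21.5 and 29.6 TPM. Pgd, the second NADPH-producing dehydrogenase, had 39.4 and 46.6 TPM. The non-oxidative enzymes, which shuttle carbon units back to glycolysis, were lower: transketolase Tkt had 18.3 and 16.4 TPM and transaldolase Taldo1 14.1 and 9.52 TPM. The values of the 2 pairs did not overlap. In the other table all 4 were higher in replicate 2. The pairs overlapped across libraries there, with G6pdx at 6.86 TPM in replicate 1 and Tkt at 10.3 TPM in replicate 2. There the order of the pairs still held within each library. It does not extend to the whole branches. Of the 10 further pathway genes 7 reached 1 TPM and 1 reached 10 TPM, the non-oxidative epimerase Rpe with 15.1 and 24.5 TPM. The oxidative lactonase Pgls, with 9.03 and 6.94 TPM, lay below Tkt and Taldo1 in both libraries, and H6pd, the dehydrogenase of the endoplasmic reticulum, had 5.39 and 6.84 TPM.

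Pyruvate enters the TCA cycle through pyruvate dehydrogenase, whose E1 component pairs the subunits of Pdha1 and Pdhb. Pdha1 had 10.5 and 13.7 TPM and Pdhb 16.8 and 26.4 TPM, a ratio of 1.61 and 1.93. Cs, citrate synthase, had 17.8 and 23.2 TPM. These entry steps lay above the median of expressed genes in both libraries.

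Isocitrate dehydrogenase is the next oxidising step. Idh3a, the catalytic subunit of the NAD-dependent enzyme, had 3.10 and 5.99 TPM on 164 and 198 counts, the lowest of the cycle in replicate 1 but not in replicate 2, where Suclg1 and Fh1 were lower. Its partner subunit Idh3b had 30.5 and 34.4 TPM, so that Idh3b was 9.85 and 5.74 times Idh3a, and 9.89 and 6.38 times in the other table. The NADP-dependent enzymes were Idh1 of the cytosol, with 9.94 and 22.8 TPM, and Idh2 of the mitochondrion, with 7.87 and 11.0 TPM. Idh1 differed most of all 35 genes between the libraries in TPM, by 2.29 times, so its mean of 16.4 TPM has an SD of 9.09. With the shift of all genes removed, as described below, Hk3 differed more, with a log2 difference of -1.03 against 0.83 for Idh1. For the step that follows, Ogdh and Dlst encode the E1 and E2 components of the 2-oxoglutarate dehydrogenase complex. They had 21.5 and 25.8 TPM and 31.5 and 40.8 TPM. Both were above Idh3a, Idh1 and Idh2 in each library, while Ogdh was below Idh3b in each. The level of Dlst was 1.46 and 1.58 times that of Ogdh.

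Succinate dehydrogenase oxidises succinate and is complex II of the respiratory chain. Sdha, its flavoprotein (chromosome 13, 74322254 to 74350280, minus strand), had 43.1 and 55.2 TPM, the highest of the cycle in both libraries. Sdhb, its iron-sulphur subunit, had 23.9 and 20.6 TPM, and the ratio of Sdha to Sdhb was 1.80 and 2.69. The steps on either side were low. Suclg1, a subunit of succinyl-CoA ligase, had 5.13 and 5.59 TPM, and Fh1, fumarase, had 3.30 and 5.97 TPM. Neither overlapped with Sdha or Sdhb. The malate dehydrogenases closed the cycle with 7.67 and 11.0 TPM for cytosolic Mdh1 and 19.1 and 13.6 TPM for mitochondrial Mdh2, and Mdh2 was the higher in both libraries, by 2.48 and 1.23 times.

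Of the 23 further genes of the cycle and of pyruvate entry, 17 reached 1 TPM and 8 reached 10 TPM. Acod1, which converts cis-aconitate to itaconate, had 309.7 and 157 TPM and exceeded every enzyme of the list in both libraries. In the other table it had 90.4 and 108 TPM, above Hk3 in replicate 1 (83.4) and below it in replicate 2 (133). Idh3b, given above, came next. Of the 20 further genes of glycolysis 9 reached 1 TPM, 3 reached 10 TPM and 8 had 0 counts in both libraries. Of the 8, chosen after its values were seen, the liver pyruvate kinase gene Pklr had 0.394 and 1.53 TPM in the other table. The 3 at 10 TPM were the neuronal enolase Eno2 with 22.0 and 12.1 TPM, the ADP-dependent sugar kinase Adpgk with 8.81 and 13.0 TPM and Pfkfb4 with 10.6 and 10.9 TPM. Eno2 was 1.14 times Eno1 in replicate 1 and 0.719 times in replicate 2, so the order of these enolases was not the same in the 2 libraries.

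Nuclear RNA holds unfinished and retained transcripts, and the transcript table assigns each its annotated class. The median share of a gene's TPM in protein-coding transcripts was 65.8% for the 35 enzymes, against 76.2% for 10040 expressed protein-coding genes. By pathway it was 84.3% for glycolysis (83.3% and 86.1% by library), 63.5% for the pentose phosphate pathway (64.8% and 62.2%) and 62.2% for the TCA cycle (65.5% and 58.1%). Under 50% in both libraries were 4 of 35 genes, against a background of 15.7%: Pfkp, Tkt, Idh3a and Dlst. At least 20% in retained-intron transcripts in both libraries had 13 of 35, against 32.6%, with 4 of 17 in glycolysis, 2 of 4 in the pentose phosphate pathway and 7 of 14 in the TCA cycle. Neither count over the 35 was far from its background. The class shares depend on the measure, because a short transcript with few reads has a high TPM. By counts the median coding share was 86.4%. In the other table it was 60.7%, with 13 genes under 50% in both libraries. Shares over all expressed genes were not computed for these measures, so 15.7% is no background for the 13.

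**Figure D3:**
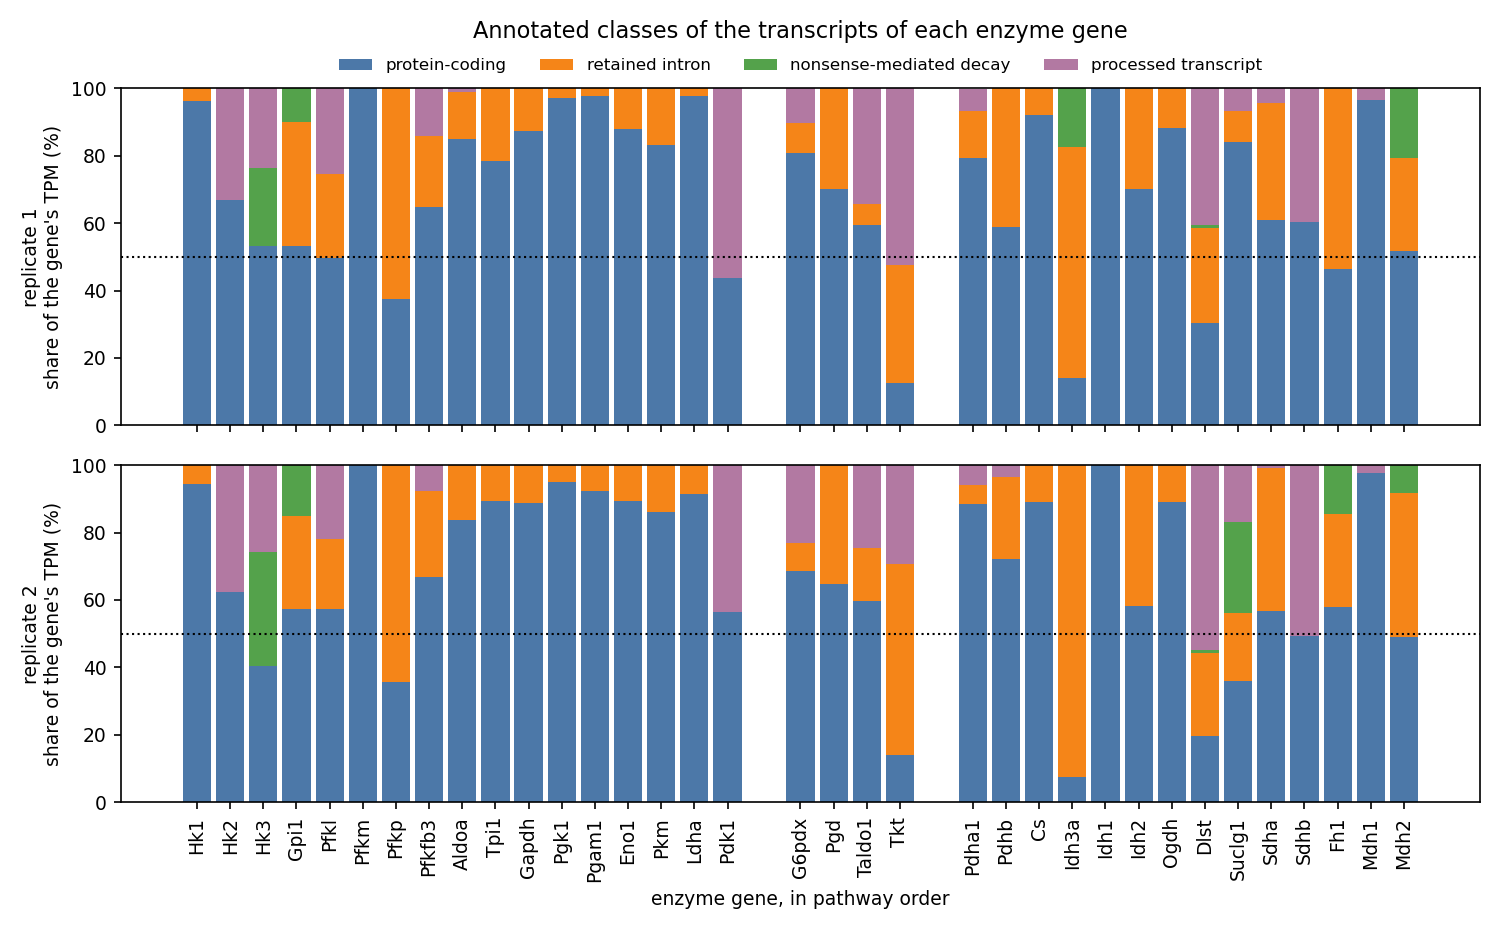
Share of each gene's TPM by annotated transcript class, in percent, stacked, with replicate 1 above and replicate 2 below; the dotted line is 50%. The genes from Aldoa to Ldha are mostly protein-coding, from 78.4% to 97.7% in replicate 1, while Tkt and Idh3a stay under 15% in both libraries.

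Idh3a and Tkt had the lowest coding shares, Tkt in replicate 1 and Idh3a in replicate 2. The protein-coding transcripts of Idh3a held 14.2% and 7.35% of its TPM, and retained-intron transcripts 68.4% and 92.7%. Of these, Idh3a-203 led in both libraries with 42.6% and 72.8% and with 53.7 and 121 counts, and Idh3a-202 had 25.8% and 19.9%. The coding transcripts of Idh3a had 0.440 TPM in each library. The coding share of Tkt was 12.7% and 14.0%. Its leading entry was Tkt-209, a transcript annotated without a reading frame, with 52.6% in replicate 1 and 29.4% in replicate 2. Of Dlst, 31.9% and 44.6% lay in the noncoding Dlst-211 and 30.4% and 19.7% in the coding Dlst-201. Of Pfkp, 62.4% and 64.3% lay in retained-intron transcripts, among them Pfkp-212 of 8681 bases, which took 50.8% and 58.5% of its counts.

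Hk3, the highest gene, was itself a mixture. The coding transcript Hk3-208 led with 107 and 50.7 TPM, or 45.8% and 36.4% of the gene. In the other table it had 25.7 and 34.9 TPM and led in replicate 1 only, since the noncoding Hk3-205 had 20.3 and 39.0 TPM there. Hk3-204, annotated for nonsense-mediated decay, had 53.8 and 47.0 TPM, or 23.0% and 33.8%. The full-length coding transcript Hk3-201, of 3219 bases, had 14.8 and 4.86 TPM (14.2 and 0.0538 in the other table). Against its internal exons, Hk3-208, of 2945 bases, lacks exon 2 of 120 bases (chromosome 13, 55019328 to 55019447). Hk3-204, of 3067 bases, lacks 56 bases of exon 5 (55014427 to 55014546, 120 bases). First and last exons were not compared. Hk3-205, a short noncoding transcript, had 21.6% and 20.1% of the TPM on 4.16% and 3.91% of the counts. The coding transcripts of Hk3 together had 125 and 56.1 TPM, still above the whole of Hk1 in each library. For Hk2, the short noncoding Hk2-202 likewise had 33.1% and 37.7% of the TPM on 3.73% and 4.28% of the counts. Suclg1 had the least repeatable class share, 84.2% coding in replicate 1 and 36.0% in replicate 2, on 209 and 134 counts.

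The replicates were compared gene by gene, which measures replicate spread and not a condition. Each difference is the log2 ratio of TPM + 1, replicate 2 to replicate 1, less the median over the 12952 genes with a mean of 1 TPM or more, which was 0.29. Adding 1 understates the difference of low genes. Of the 35 genes 1 was over 2-fold lower in replicate 2, Hk3 at -1.03, against 4.51% of all such genes, and 0 were over 2-fold higher, against 2.78%. Without the median subtracted, 14 of 35 were lower in replicate 2, against 27.8% of all such genes. The first 2 counts lie close to the background.

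By pathway the differences lay on different sides of that median. Of the 10050 expressed protein-coding genes 53.2% were lower in replicate 2, with a median of -0.04 (SD over genes 0.48). Whether the pathway counts depart from that share was not tested. In glycolysis 15 of 17 genes were lower in replicate 2, with a median of -0.40 (SD over genes 0.30). In the pentose phosphate pathway 3 of 4 were lower, with a median of -0.24. In the TCA cycle 10 of 14 were higher, with a median of 0.07 (SD over genes 0.39), from -0.74 for Mdh2 to 0.83 for Idh1. The exceptions in glycolysis were Gpi1 at 0.21 and Pfkm at 0.16. Mitochondrial mRNAs, whose share was higher in replicate 2, moved in the direction of the TCA genes, and their part in the result was not tested. In the other table this split was not seen, with 9 of 17 glycolysis genes and 7 of 14 TCA genes lower in replicate 2 and medians of -0.09 and 0.04. Hk3 was -0.61 there and Idh1 0.83, so the high difference of Idh1 was the same in both tables.

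**Figure D4:**
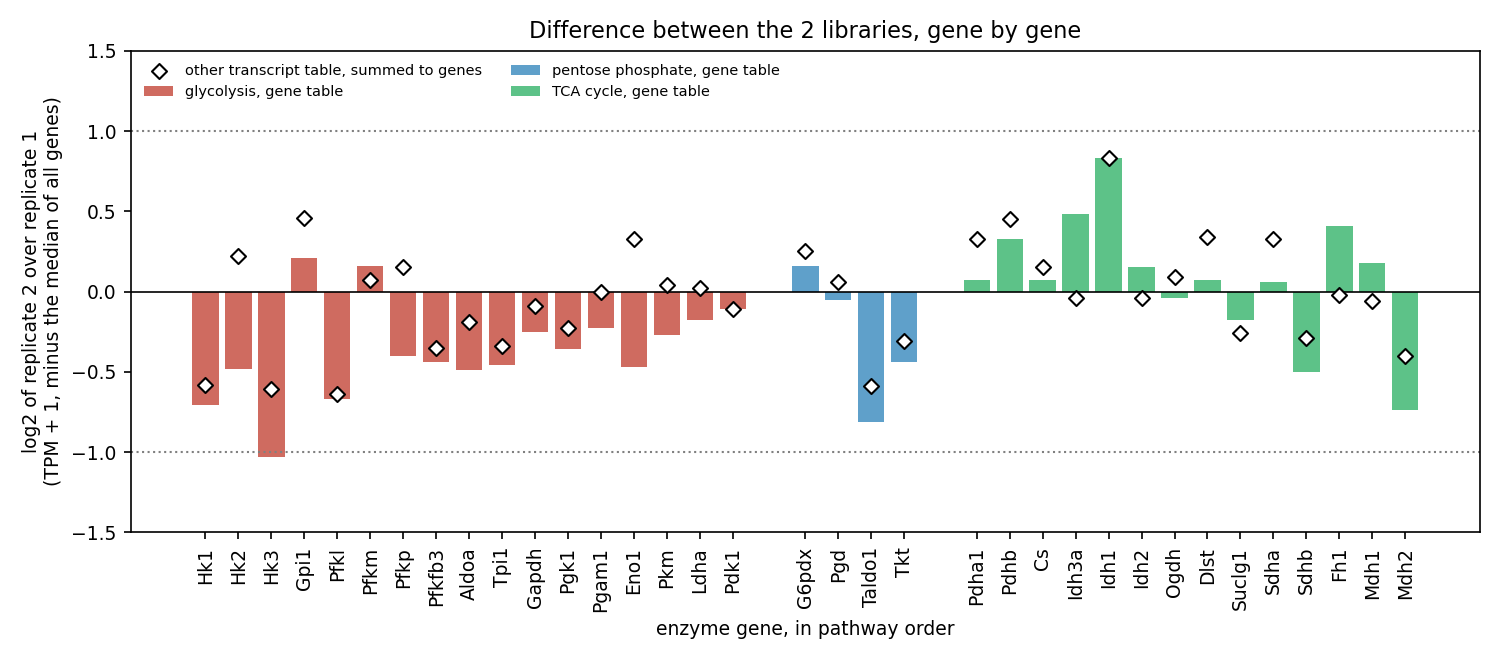
Difference between the libraries for each gene, as log2 of replicate 2 over replicate 1 with the median of all genes at 0; bars are the gene tables, diamonds the other table, dotted lines 2-fold. Glycolysis bars mostly point down and TCA bars mostly up, while the diamonds lie on both sides of 0 in every pathway.

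Promoters were read to see what the genes share in sequence. RefSeq promoters (GRCm38.p6, 250 bases before each start site) were matched for 34 of 35 genes, in 53 windows, of which several per gene can overlap. The median GC content was 60.4% and the median number of CpG pairs 16, against 59.6% and 16 for the promoters of expressed protein-coding genes. The core of the element bound by hypoxia-inducible factor, ACGTG on either strand, occurred in 21 of 53 windows (39.6%), against 22.2% of 10247 windows of expressed protein-coding genes and 16.6% of all 32851. Counted by gene, with a match in any window, it was 13 of 34, against 25.9% of expressed genes. By pathway it was 9 of 17 in glycolysis, 0 of 4 in the pentose phosphate pathway and 4 of 13 in the TCA cycle. The enzymes had more windows per gene, 53 for 34 genes against 10247 for 8031, which gives them more occasions for a match. By windows the order of glycolysis and the TCA cycle turned, with 12 of 29 and 9 of 19, as 6 of those 9 windows belong to Ogdh. The longer palindrome CACGTG contains the core, and MYC and carbohydrate-response factors bind it. It occurred in 6 of 53 windows, against 8.65% of those of expressed genes. Counted by gene it was 4 of 34, against 10.4%, as 3 of the 6 windows belong to Ogdh. A match of letters is not a bound site, and binding was not measured.

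The promoters of Hk3, Hk2 and Ldha are shown because they contrast the hexokinase that led here with the inducible one and with the promoter of most matches. Capitals mark ACGTG or its reverse complement CACGT, or both where they overlap as CACGTG. Each runs 5′ to 3′ along the gene's strand up to the base before the start site. The Hk3 window, chr13:55021386-55021635 on the minus strand, has 47.2% GC, 6 CpG pairs and 1 match.
Hk3 promoter: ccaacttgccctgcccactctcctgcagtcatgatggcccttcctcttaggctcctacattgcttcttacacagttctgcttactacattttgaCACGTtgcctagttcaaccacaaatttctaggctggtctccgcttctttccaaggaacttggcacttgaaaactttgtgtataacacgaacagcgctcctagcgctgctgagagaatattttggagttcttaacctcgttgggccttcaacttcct
The Hk2 window, chr6:82774455-82774704 on the minus strand, has 69.6% GC, 25 CpG pairs and 2 matches.
Hk2 promoter: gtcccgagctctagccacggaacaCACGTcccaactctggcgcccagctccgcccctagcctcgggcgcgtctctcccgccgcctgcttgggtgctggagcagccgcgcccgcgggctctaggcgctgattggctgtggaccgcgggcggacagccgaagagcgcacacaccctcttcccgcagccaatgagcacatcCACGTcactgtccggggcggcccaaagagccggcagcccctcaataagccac
The upstream Ldha window, chr7:46845554-46845803 on the plus strand, has 67.2% GC, 25 CpG pairs and 5 matches, counting both strands of its 2 palindromes.
Ldha promoter: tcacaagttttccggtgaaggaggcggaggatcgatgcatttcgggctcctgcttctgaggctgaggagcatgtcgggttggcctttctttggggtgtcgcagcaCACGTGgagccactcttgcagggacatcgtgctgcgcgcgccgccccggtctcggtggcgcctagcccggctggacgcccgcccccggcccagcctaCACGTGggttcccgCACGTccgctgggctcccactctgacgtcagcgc
Hk3, the higher of the 2 hexokinase genes by TPM, has the window with less GC and fewer CpG pairs.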

How the data were processed

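Ribosomal RNA-depleted total RNA from macrophage nuclei was measured in 2 libraries of 1 group, with replicate numbers from the labels. The authors deposited, per library, a gene and a transcript table with expected counts (estimated reads, not normalised) and TPM, per the file headers, and another transcript table with estimated counts and TPM, which was summed to genes here. The assembly is mm10 with GENCODE M21, per the labels and the tables' identifiers; of aligner, quantifiers and strand the sources used here give nothing. Genes, transcript classes and positions came from GENCODE M21 and promoters from RefSeq (GRCm38.p6). The 26248 numeric entries (24 and 54 counts) and 97 spike-in entries (0.581% and 0.434% of counts) stayed out. Of the symbols, 1 (Aldoa) had several identifiers, and its entry of higher mean TPM was taken.

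Levels are the mean and SD of both libraries. TPM divides by length, so short entries weigh heavily. A chi-square test of rounded counts over 14347 genes gave 91.3 per degree of freedom, so the libraries are not one library deposited again. With 1 library on each side there is no test between them, and genes were described by counts and medians beside all genes. Shares of counts carry 95% Wilson intervals. Near-identical copies were searched as shared words of 50 bases in GENCODE transcripts. The difference procedure was tested on simulated data.

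The members and lists were chosen with earlier results of these data known. Beside the 35 members, 81 other genes of 5 lists were read: further glycolysis, pentose phosphate and TCA genes, carriers, and regulators. Of each list the text names the 3 with the highest mean TPM and any past 2-fold between libraries at a mean of 1 TPM or more. Of member transcripts it names leading ones and noncoding ones with at least 20% of the gene's TPM in both libraries. Some genes that these rules select are not reported here. Other genes named are said to be chosen after their values were seen. Alternatives were the other table, TPM rescaled after removal of mitochondrial genes and of those under 200 bases, pseudocounts of 0.1 and 5, no filter, at least 10 counts in each library, no centring, TMM-scaled counts (edgeR 4.0.16, R 4.3.3, rounded expected counts), shares of counts, and omission of either replicate. Protein-coding transcripts alone, and a centre from protein-coding genes alone, were added after seeing the data. Other steps used Python 3.11.15, numpy 2.4.6, pandas 2.3.3, statsmodels 0.14.6 and matplotlib 3.10.9.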

Additional observations from a re-analysis of the deposited data

How the results depend on the processing

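No paired analysis was possible because there is 1 group, and leaving out a replicate leaves no difference between libraries. The counts of genes at 1 TPM, at 10 TPM and at the median of expressed genes, 35, 27 and 29, stayed within 1.5 times under every alternative tried. The largest change was in the other table, where they were 35, 19 and 27. The share of all protein-coding genes at 10 TPM was not computed for that table. Median levels of all 35 genes, glycolysis, the pentose phosphate pathway and the TCA cycle were 10.5, 12.8, 10.9 and 8.76 TPM in the other table and 25.6, 33.0, 26.5 and 20.3 TPM after rescaling, in one order throughout; leaving out a replicate gave 19.2 to 22.8, 24.9 to 24.9, 19.9 to 23.0 and 13.6 to 17.1 TPM.

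The median difference between libraries over all 35 genes, -0.18, was -0.11 with a pseudocount of 5, -0.01 without a filter, 0.10 without centring and -0.02 in the other table. For glycolysis, -0.40, these were -0.26, -0.23, -0.11 and -0.09. For the pentose phosphate pathway, -0.24, they were -0.13, -0.08, 0.04 and -0.12, and -0.14 with protein-coding transcripts alone. For the TCA cycle, 0.07, they were 0.15, 0.24, 0.36 and 0.04, with 0.04 at a pseudocount of 0.1 and 0.11 with protein-coding genes as the centre. Without centring 14 genes were lower in replicate 2 instead of 22. The 1 gene over 2-fold lower became 0 with a pseudocount of 5, no filter, no centring, the other table or protein-coding genes as the centre, and 2 with protein-coding transcripts alone (Hk3 and Suclg1); the 0 over 2-fold higher became 1, Idh1, without a filter or centring. The rescaled TPM, a minimum of 10 counts and TMM scaling moved no call. The cause of these changes was not tested.

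The mean share of Hk3, 78.3%, was 83.3% in the other table, 71.5% by counts and 66.9% in protein-coding transcripts, and 75.9% to 80.8% by library. That of Pfkp, 70.8%, was 71.9%, 76.4% and 57.5%, and 70.7% to 71.0% by library. The median coding share, 65.8%, was 60.7% in the other table, 86.4% by counts and 66.9% to 70.1% by library. The 4 genes under 50% coding became 13 in the other table and 7 to 8 when a single library decided, counts for which no background was computed. Depth limits Pfkl, Pfkm, Pdk1, Taldo1, Idh3a, Suclg1 and Fh1 most, each with under 200 counts in at least 1 library.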

Other observations

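Sugar and pyruvate carriers and the regulators of these pathways spanned a wide range. Of 11 carriers 10 reached 1 TPM and 5 reached 10 TPM, with a median of 7.80 TPM. Slc37a2, a sugar phosphate transporter of the endoplasmic reticulum that macrophages are known to express, had 40.9 and 64.4 TPM in replicates 1 and 2. Slc2a6, a glucose transporter family member of lysosomal membranes, had 47.7 and 18.3 TPM, and differed by -1.62 between the libraries. Mpc1, a subunit of the mitochondrial pyruvate carrier, had 15.3 and 37.6 TPM. Slc2a1, the surface glucose transporter, was chosen after its values were seen: it had 3.34 and 2.46 TPM, so Slc2a6 was 14.3 and 7.44 times as high, and 10.9 and 9.88 times in the other table.

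Of 17 regulators 14 reached 1 TPM and 8 reached 10 TPM. Nfe2l2, the oxidative stress factor NRF2, which activates pentose phosphate genes, was highest with 68.2 and 119 TPM. Mlxip, a glucose-sensing factor, had 18.2 and 22.1 TPM, and Arnt, the partner subunit of hypoxia-inducible factors, 16.2 and 23.6 TPM. Hif1a, the oxygen-regulated subunit, chosen after its values were seen, had 11.6 and 16.4 TPM. None of the 14 differed over 2-fold between the libraries after centring.

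Of the 5 lists, which held 9, 7, 17, 10 and 14 genes at 1 TPM or more, 5 such genes differed over 2-fold between libraries. Over all genes at that level 4.51% were over 2-fold lower in replicate 2 and 2.78% over 2-fold higher. The 5 genes are thus named by rule and not as a trait of the lists. Acod1 (-1.27), Eno2 (-1.10) and Slc2a6 (-1.62) were lower in replicate 2, as Hk3 was. Suclg2, the GTP-forming subunit of succinyl-CoA ligase, with 2.52 and 9.51 TPM (1.29), and Prps2, a synthetase of phosphoribosyl pyrophosphate, with 2.33 and 8.42 TPM (1.21), were higher. In replicate 2 RNA input was lower, and its part in these differences was not tested.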
